A study of Mus musculus with 27 samples.

Results

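Mouse red blood cells carry haemoglobin, and their RNA travels into any tissue that is dissected with its blood. The 7 globin genes Hbb-y, Hbb-bh1, Hba-x, Hba-a1, Hba-a2, Hbb-bs and Hbb-bt were described here in dissected cortex, together with Alas2, the red-cell form of the first enzyme of heme synthesis. They were taken by name, because Bcl11a is a known repressor of embryonic and fetal globin genes and was deleted here with a Cre that acts in the cortex. All 8 were among the 34745 genes of the embryonic count table, and 8 of 8 passed its filter on low counts. At birth (P0), 4 of them were listed for the Bcl11a-CKO comparison (Hba-a2, Hbb-bs, Hbb-bt and Alas2) and 2 for the Bcl11ab-DCKO comparison (Hba-a2 and Alas2); the other members at P0 were not analysed here.

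Total RNA of flash-frozen cortex was sequenced in 27 libraries, 3 in each of 9 groups, taken at P0 and on embryonic days 13.5 and 15.5 (E13.5 and E15.5). Control animals were wildtype C57BL/6. Bcl11a-CKO animals carried Emx1-Cre with Bcl11a Flox/Flox, and Bcl11ab-DCKO animals carried Emx1-Cre with Bcl11a Flox/Flox and Bcl11b Flox/Flox. Emx1-Cre recombines in progenitors of the dorsal telencephalon, whereas blood cells of the embryo arise in the yolk sac and the fetal liver. The labels give no Cre for the controls. At E15.5, replicates 2 and 3 of the controls carry the same title number with R or L added, and the same holds for replicates 2 and 3 of Bcl11a-CKO. The counts of such libraries were added up for the tests, giving 16 embryonic units in all. All E15.5 titles of controls and Bcl11a-CKO carry R or L, and no E15.5 title of Bcl11ab-DCKO does. At E15.5 this difference in labels cannot be told apart from the Bcl11ab-DCKO genotype.

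Vertebrate haemoglobin is a tetramer of α-like and β-like chains, each holding a heme group. In the mouse, the first (primitive) red cells, made in the yolk sac, express the embryonic β-like genes Hbb-y and Hbb-bh1 and the embryonic α-like gene Hba-x beside adult α-globin. The definitive red cells that follow from the fetal liver express the adult genes Hba-a1, Hba-a2, Hbb-bs and Hbb-bt. BCL11A represses the embryonic β-like genes in definitive red cells, and in human cells it is known to bind the short motif TGACCA in the γ-globin promoters.

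In mm10 coordinates, the β-like genes lie on the minus strand of chromosome 7, with Hbb-y at chr7:103851745-103853240, Hbb-bh1 at chr7:103841636-103843164, Hbb-bs at chr7:103826534-103828096 and Hbb-bt at chr7:103812524-103813996. The α-like genes lie on the plus strand of chromosome 11, with Hba-x at chr11:32276400-32278116, Hba-a1 at chr11:32283511-32284465 and Hba-a2 at chr11:32296489-32297298. Alas2 lies at chrX:150547375-150570638 on the plus strand, and its exons overlap those of Apex2 and Mir3620 on the opposite strand. Whether the counting used strand is not given in the sources used here, so reads of Alas2 and of these neighbours may not be told apart. Hba-a1 and Hba-a2 share most of their transcript, since 89.29% of the 50-base words of Hba-a2 also occur in Hba-a1. Of the 50-base words of Hbb-bs, 53.21% occur in Hbb-bt. The split of reads within each of these adult pairs is therefore uncertain, whereas Hbb-y shared 0.0% of such words with Hbb-bs and with Hbb-bh1, and Hba-x shared 0.0% with Hba-a1.

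Promoters of an embryonic and an adult gene of each cluster, and of the second adult β gene, are printed to show what sets them apart in sequence. RefSeq (GRCm38.p6) gave a promoter for 7 of the 8 genes and none for Hbb-bh1. Each line holds the 120 bases before the RefSeq start, 5′ to 3′ on the gene's strand, at chr7:103853208-103853327 for Hbb-y, chr11:32276480-32276599 for Hba-x, chr11:32296372-32296491 for Hba-a2, chr7:103827929-103828048 for Hbb-bs and chr7:103813924-103814043 for Hbb-bt. The gene models of the count table start further upstream, so that these windows lie wholly (Hba-x, Hbb-bs) or in part inside those models. Capitals mark TGACCA and the CCAAT box, read on either strand.
Hbb-y: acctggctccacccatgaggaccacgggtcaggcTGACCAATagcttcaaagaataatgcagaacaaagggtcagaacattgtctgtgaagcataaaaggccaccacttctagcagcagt
Hba-x: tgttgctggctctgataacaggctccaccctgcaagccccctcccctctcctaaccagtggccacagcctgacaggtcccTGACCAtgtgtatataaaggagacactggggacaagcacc
Hba-a2: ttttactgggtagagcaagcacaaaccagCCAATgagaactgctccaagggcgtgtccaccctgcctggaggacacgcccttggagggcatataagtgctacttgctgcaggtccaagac
Hbb-bs: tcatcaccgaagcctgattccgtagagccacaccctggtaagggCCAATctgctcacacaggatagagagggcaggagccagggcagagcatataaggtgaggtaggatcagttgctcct
Hbb-bt: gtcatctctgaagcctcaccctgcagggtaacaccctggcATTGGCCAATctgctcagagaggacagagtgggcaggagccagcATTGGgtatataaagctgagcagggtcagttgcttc

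Over 250 bases before the start and both strands, TGACCA stood in the promoters of Hbb-y and Hba-x and in none of the other 5 members searched. In Hbb-y it overlaps the CCAAT box, with which it shares the letters CCA. Among 32851 RefSeq promoters, 11.38% held TGACCA, so a match in 2 of 7 is a description of letters and not of binding. CCAAT stood in Hbb-y, Hba-a1, Hba-a2, Hbb-bs and Hbb-bt, against 33.85% of all promoters. CACCC and GATAA, the letters bound by Klf-type and GATA factors, stood in 7 of 7, against 52.01% and 22.58%. The promoters of Hba-a1 and Hba-a2 share a run of 247 of the 250 bases, while the longest run shared by Hbb-bs and Hbb-bt was 14 bases.

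The 18 embryonic libraries held 4313142 to 7220708 counts. The 14 cortical progenitor and neuron markers were detected in all 18, the lowest at 19.13 CPM (the count of a gene scaled to the same total count in each library). Bcl11b fell in Bcl11ab-DCKO, from 149 to 327 CPM in controls to 44.9 to 57.4 CPM at E13.5 and from 323 to 333 to 99.6 to 116 CPM at E15.5. At E13.5 Bcl11a stood at 426 to 523 CPM in controls, 260 to 371 CPM in Bcl11a-CKO and 280 to 311 CPM in Bcl11ab-DCKO. At E15.5 it stood at 720 to 764, 561 to 582 and 652 to 712 CPM, which did not pass the test in either mutant (edgeR adjusted p = 0.189 and 0.563). Which exons the floxed alleles remove is not given in the sources used here, and counts over a whole gene also include exons that remain.

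Between E13.5 and E15.5 the embryonic globin genes all but left the cortex libraries, in every genotype. Hbb-y, the main embryonic β-like gene, stood at 1189, 611 and 888 CPM in the 3 control libraries at E13.5, and at 13.0, 2.71 and 3.35 CPM at E15.5. In Bcl11a-CKO it went from 659, 539 and 958 CPM to 4.26, 6.81 and 4.46 CPM. In Bcl11ab-DCKO it went from 1146, 1467 and 559 CPM to 9.75, 12.8 and 6.05 CPM. Each E13.5 library was above each E15.5 library. The log2 fold change from E13.5 to E15.5 was -6.95 ± 0.63 (SE) in controls, -7.12 ± 0.64 in Bcl11a-CKO and -6.77 ± 0.51 in Bcl11ab-DCKO, with adjusted p = 1.81e-06, 1.72e-06 and 1.85e-07 in edgeR's quasi-likelihood test with Benjamini-Hochberg adjustment over 14947 genes. In controls it moved to -8.18 (adjusted p = 2.13e-05) without E15.5 Control replicate 1 and to -6.11 (7.98e-05) without replicates 2 and 3. For Hbb-y in bulk tissue, fewer red cells, another mix of primitive and definitive red cells and less RNA per cell cannot be told apart. The labels do not say that each library came from another animal, so these p-values measure the spread between samples, which may be partly technical.

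Hba-x, the embryonic α-like gene, ran in parallel. It stood at 262, 111 and 209 CPM in controls at E13.5 and at 3.39, 1.13 and 0.718 CPM at E15.5. Bcl11a-CKO libraries went from 133, 113 and 239 CPM to 1.89, 3.62 and 2.55 CPM, and Bcl11ab-DCKO libraries from 235, 334 and 157 CPM to 2.75, 3.69 and 1.42 CPM. The ages did not overlap, and the lowest E13.5 library stood far above the highest E15.5 library. The edgeR log2 fold changes were -6.67 ± 0.64, -5.90 ± 0.61 and -6.49 ± 0.52 (adjusted p = 3.08e-06, 4.81e-06 and 2.94e-07). The value of controls moved to -7.65 (6.72e-05) without E15.5 Control replicate 1 and to -5.83 (2.38e-04) without replicates 2 and 3.

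Hbb-bh1, the other embryonic β-like gene, was much scarcer than Hbb-y. At E13.5 it stood at 23.7, 11.3 and 19.2 CPM in controls, at 6.98, 7.58 and 26.9 CPM in Bcl11a-CKO and at 20.9, 27.3 and 10.4 CPM in Bcl11ab-DCKO. At E15.5 the same gene had 3, 0 and 0 counts in the control libraries, 0, 2 and 0 in Bcl11a-CKO and 2, 0 and 2 in Bcl11ab-DCKO. Pooled over the libraries of a group, the rate at E13.5 was 86.5 times that at E15.5 in controls (95% exact interval 29.3 to 422), 94.6 times in Bcl11a-CKO (25.9 to 785) and 91.9 times in Bcl11ab-DCKO (35.6 to 339). These intervals cover counting error only. In controls the 3 counts of E15.5 all came from replicate 1, and in Bcl11a-CKO the 2 counts from replicate 2. Hbb-bh1 passed the filter on low counts through its E13.5 level alone, so it had to differ between the ages and its fitted value is not used as support.

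The adult α-globin genes also fell, by much less. Hba-a1 stood at 348, 223 and 243 CPM in controls at E13.5 and at 109, 126 and 109 CPM at E15.5. Its Bcl11a-CKO libraries went from 254, 178 and 241 CPM to 102, 127 and 107 CPM, and its Bcl11ab-DCKO libraries from 364, 359 and 200 CPM to 130, 146 and 114 CPM. The ages did not overlap for Hba-a1. The edgeR log2 fold changes were -1.26 ± 0.25, -1.03 ± 0.25 and -1.24 ± 0.22 (adjusted p = 9.62e-04, 0.00375 and 2.60e-04). Adult α chains pair with embryonic as well as adult β-like chains, so these genes serve both kinds of red cell.

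Hba-a2, the neighbouring adult α gene, stood at 199, 131 and 129 CPM in controls at E13.5 and at 65.2, 75.6 and 73.4 CPM at E15.5. Bcl11a-CKO libraries went from 161, 104 and 137 CPM to 68.6, 80.5 and 65.0 CPM, and Bcl11ab-DCKO libraries from 222, 194 and 123 CPM to 88.0, 104 and 74.5 CPM. Within each genotype the ages stood apart, although 1 E15.5 Bcl11ab-DCKO library stood level with the lowest E13.5 library, of Bcl11a-CKO. The edgeR log2 fold changes were -1.12 ± 0.26, -0.91 ± 0.26 and -1.02 ± 0.22 (adjusted p = 0.00247, 0.00903 and 0.00141). The Bcl11a-CKO call was lost without E15.5 Bcl11a-CKO replicate 1 (adjusted p = 0.0666) and without the summed replicates 2 and 3 (0.0532).

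The major adult β gene, Hbb-bs, stood at 155, 120 and 85.7 CPM in controls at E13.5 and at 146, 129 and 124 CPM at E15.5. Bcl11a-CKO libraries stood at 144, 59.3 and 135 CPM and then at 123, 149 and 121 CPM, and Bcl11ab-DCKO libraries at 206, 113 and 120 CPM and then at 172, 180 and 138 CPM. The ages overlapped. The edgeR log2 fold changes of 0.18 ± 0.33, 0.20 ± 0.34 and 0.16 ± 0.30 did not pass the test (adjusted p = 0.692, 0.646 and 0.666).

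Alas2, which red cells use in place of the housekeeping Alas1 for heme synthesis, stood lower at E15.5. It went from 23.5, 12.2 and 19.4 CPM to 13.2, 9.05 and 11.5 CPM in controls, from 18.2, 15.4 and 22.6 CPM to 8.99, 13.0 and 9.14 CPM in Bcl11a-CKO, and from 20.9, 29.8 and 15.8 CPM to 15.1, 10.8 and 8.90 CPM in Bcl11ab-DCKO. The edgeR log2 fold changes were -0.66 ± 0.31, -0.87 ± 0.32 and -0.96 ± 0.28. The mutants passed the test (adjusted p = 0.0353 and 0.00876) and the controls did not (0.0959), a difference between genotypes that itself did not pass. Single libraries decided these calls. Without E13.5 Control replicate 2 the controls passed (adjusted p = 0.0284). Bcl11a-CKO lost its call without E13.5 replicate 1 (0.0538), E13.5 replicate 3 (0.108), E15.5 replicate 1 (0.173) or the summed E15.5 replicates 2 and 3 (0.093), and Bcl11ab-DCKO without E13.5 replicate 2 (0.0611).

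**Figure D1:**
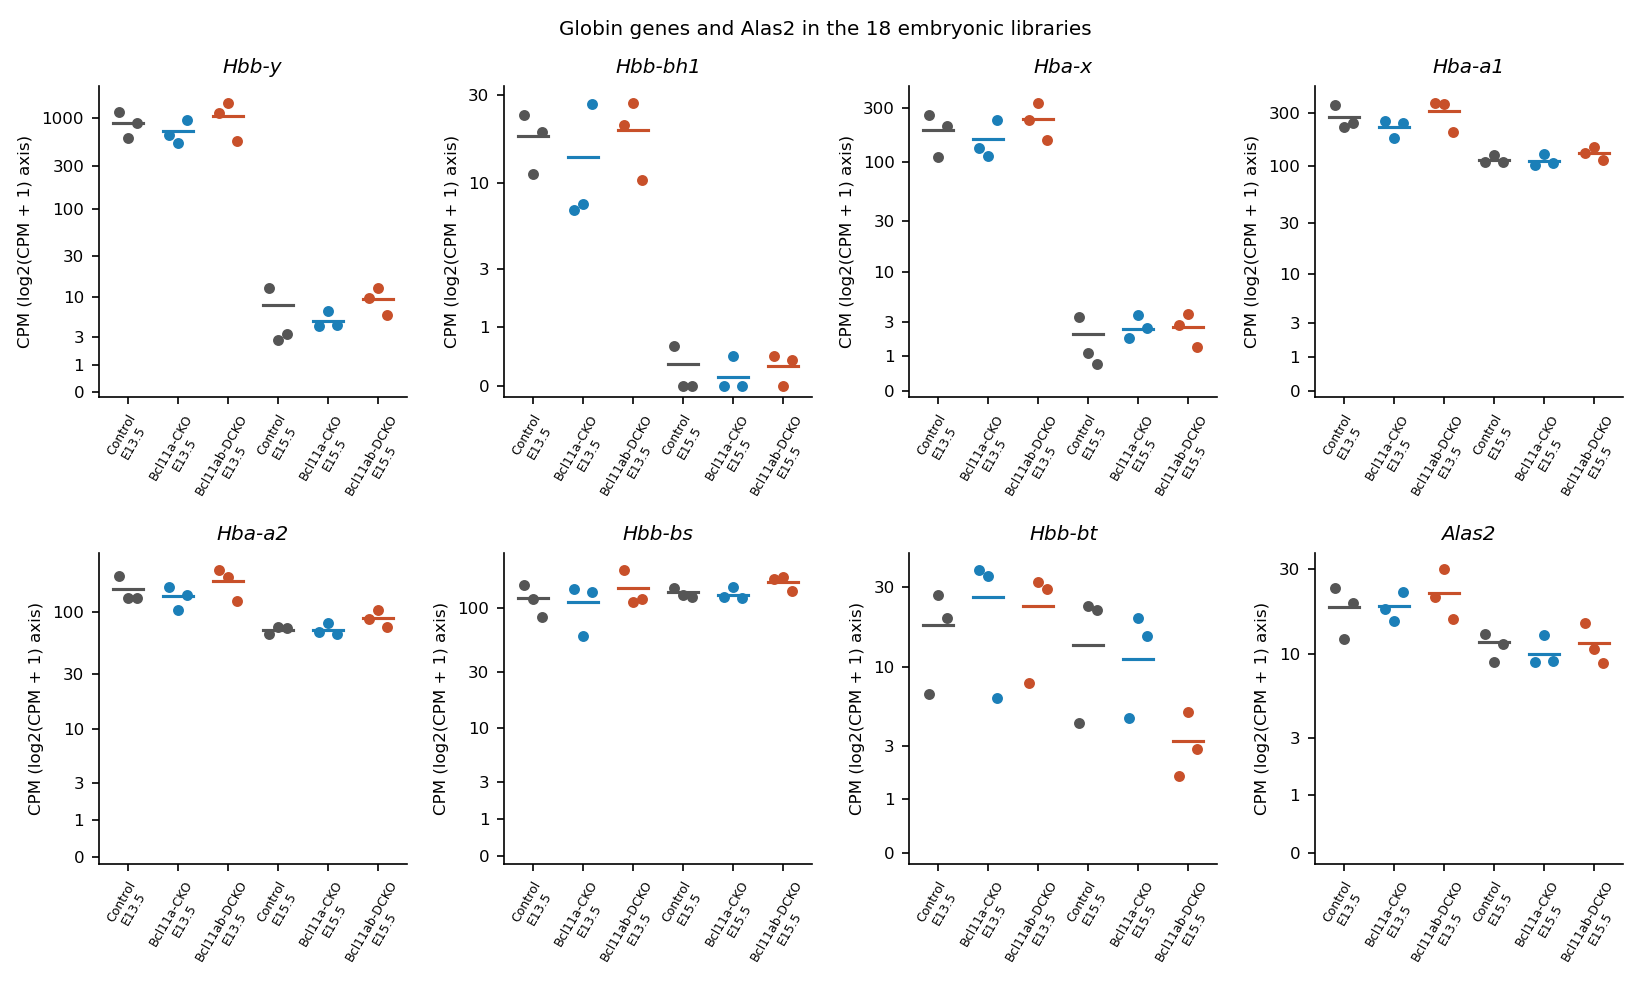
CPM of each gene (log2(CPM + 1) axis) in the 18 embryonic libraries, by genotype and age, with dots for libraries and bars for the mean of the test units. Hbb-y lies between 539 and 1467 CPM at E13.5 and between 2.71 and 13.0 CPM at E15.5, while Hbb-bs overlaps between the ages and Hbb-bt spreads widely within groups.

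Counted together, 5 of 8 genes fell with age in controls, against 23.8% of all genes tested. In Bcl11a-CKO it was 6 of 8, against 24.4% of all genes, and in Bcl11ab-DCKO 7 of 8, against 27.2%. None of the 8 rose in any genotype, where 24.3%, 23.8% and 27.7% of all genes did. The median log2 fold change of the 8 genes in controls was -1.19, beside -0.01 over all genes. Leaving out Hbb-bh1, which passed the filter through E13.5 alone, 4, 5 and 6 of 7 fell. Hbb-y, Hbb-bh1, Hba-x, Hba-a1 and Hba-a2 were the 5 that fell in controls, and Alas2 and Hbb-bt were the additional calls in the mutants.

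Levels per kilobase of exon put the genes in order. In controls at E13.5, Hbb-y led at 1421 CPM per kb, before Hba-a1 at 335, Hba-a2 at 229.9, Hba-x at 207.5 and Hbb-bs at 157.2 CPM per kb. Hbb-bh1, Hbb-bt and Alas2 followed at 29.6, 25.4 and 7.67 CPM per kb. At E15.5 the order had turned, with Hbb-bs first at 178.0 CPM per kb, Hba-a1 at 140.2 and Hba-a2 at 105.3. Hbb-bt then stood at 19.3, Hbb-y at 12.7, Alas2 at 4.89, Hba-x at 2.31 and Hbb-bh1 at 0.490 CPM per kb. Hbb-y thus went from the top of the order to a mean below that of the minor adult gene Hbb-bt. The control units of E15.5 differed in this, with Hbb-y at 13.0 and 3.04 CPM and Hbb-bt at 4.40 and 22.7 CPM. At E15.5 Hbb-y stood below Hbb-bt in Bcl11a-CKO (7.86 against 16.0 CPM per kb) and above it in Bcl11ab-DCKO (15.1 against 4.62). For Hbb-y, the order over the 6 groups, as mean ± SD, was Bcl11ab-DCKO at E13.5 (1061 ± 462 CPM, n = 3), Control (899 ± 290) and Bcl11a-CKO (721 ± 216), then the E15.5 groups at 9.58 ± 3.41 (n = 3), 8.03 ± 7.05 (n = 2) and 4.98 ± 0.99 CPM (n = 2) in the same order. Neighbouring genotypes in that order overlapped, and the ages did not.

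Shares within the globin counts do not scale with the amount of globin RNA in a sample. Hbb-y and Hbb-bh1 together made up 78.6% to 91.16% of the β-like counts in the 9 libraries of E13.5 and 1.76% to 8.283% in the 9 of E15.5. By unit, the group means at E13.5 were 86.24% ± 4.66 in controls, 83.79% ± 4.61 in Bcl11a-CKO and 84.98% ± 5.95 in Bcl11ab-DCKO (SD, n = 3). At E15.5 they were 5.14% ± 4.45 (n = 2), 3.46% ± 0.32 (n = 2) and 5.45% ± 1.08 (n = 3). The genotypes overlapped at E13.5. At E15.5 the controls overlapped both mutants, while the Bcl11a-CKO units (3.232% and 3.689%) lay below the Bcl11ab-DCKO units (4.337% to 6.483%), a difference that was not tested. The highest E15.5 library was Control replicate 1, which also held the most Hbb-y. Without it the control unit left stood at 1.992%, and without replicates 2 and 3 at 8.283%.

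Hba-x made up 23.93% to 38.78% of the α-like counts at E13.5 and 0.3916% to 1.91% at E15.5, where the control units stood at 1.91% and 0.4819%. Within the embryonic β-like counts of E13.5, Hbb-bh1 took only 1.048% to 2.736%. All 7 globin genes together took 0.106% to 0.2606% of the counts of a library at E13.5 and 0.02945% to 0.04407% at E15.5. The ratio of α-like to β-like counts rose from 0.5411 to 0.668 at E13.5 to 1.084 to 1.311 at E15.5, with no overlap. These counts are not corrected for length.

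**Figure D2:**
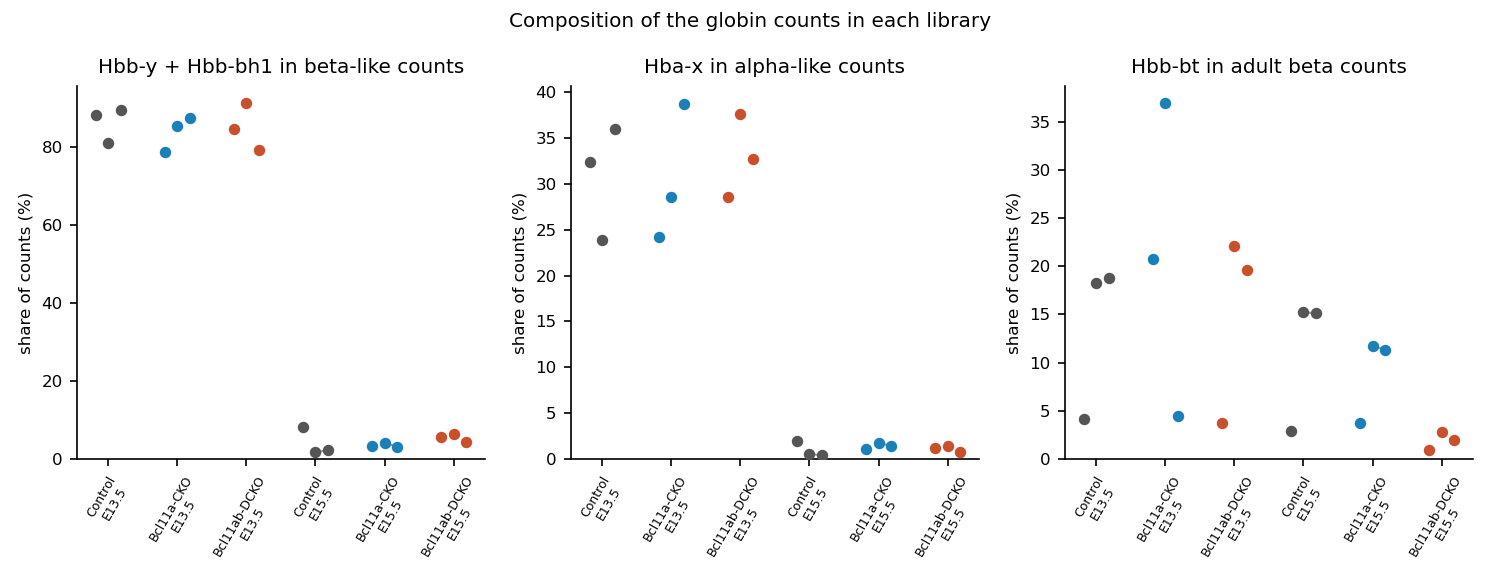
Share of counts (%, y axis) in each embryonic library, by group: Hbb-y and Hbb-bh1 in the β-like counts, Hba-x in the α-like counts and Hbb-bt in the adult β counts, with lines joining libraries of 1 title number. The embryonic share of β-like counts lies between 78.6% and 91.16% at E13.5 and between 1.76% and 8.283% at E15.5, and the Hbb-bt share differs between libraries of the same group.

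Hbb-bt, the second adult β gene, differed more between libraries of a group than between most groups. It stood at 6.80, 26.7 and 19.8 CPM in controls, 37.7, 34.6 and 6.37 CPM in Bcl11a-CKO and 7.94, 31.9 and 29.1 CPM in Bcl11ab-DCKO at E13.5. At E15.5 it stood at 4.39, 23.1 and 22.0 CPM, 4.73, 19.8 and 15.5 CPM, and 1.70, 5.17 and 2.85 CPM. At E13.5, 1 library of each group thus stood well below the others. At E15.5, controls and Bcl11a-CKO hold 2 units each, at 4.40 and 22.7 CPM and at 4.75 and 17.8 CPM. The E15.5 Bcl11ab-DCKO libraries, whose titles carry no R or L, were all low. Its drop with age passed the test in Bcl11ab-DCKO (edgeR log2 fold change -2.77 ± 0.86, adjusted p = 0.0133) and not in controls (-0.32 ± 0.81, 0.770) or Bcl11a-CKO (-1.12 ± 0.81, 0.273).

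As a share of Hbb-bs and Hbb-bt counts, Hbb-bt took 4.192% (95% exact interval 2.937% to 5.782%), 18.21% and 18.75% in the E13.5 controls. In E13.5 Bcl11a-CKO it took 20.79%, 36.89% (33.29% to 40.6%) and 4.493%, and in E13.5 Bcl11ab-DCKO 3.707%, 22.05% and 19.59%. The low and the high libraries lie far outside one another's counting intervals. At E15.5 the shares were 2.922%, 15.22% and 15.11% in controls, 3.711%, 11.73% and 11.35% in Bcl11a-CKO, and 0.9744% (0.4216% to 1.911%), 2.789% and 2.015% in Bcl11ab-DCKO. The R and L libraries of 1 title number, replicates 2 and 3 of the controls and of Bcl11a-CKO, were within counting error of each other, while the remaining library of each group stood apart. Because Hbb-bs and Hbb-bt share transcript sequence, this share is uncertain. Hbb-bs and Hbb-bt belong to the single haplotype of the β-globin cluster that C57BL/6 mice carry; the genes of the other common haplotype, Hbb-b1 and Hbb-b2, were not analysed here.

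None of the 8 genes passed the test for a difference between genotypes in the embryo. At E13.5, 0 of 8 passed the edgeR test for Bcl11a-CKO against control, where 2.59% of all genes did, 0 of 8 for Bcl11ab-DCKO against control, where 7.05% did, and 0 of 8 between the mutants, where 0.729% did. At E15.5 it was 0 of 8 in each of the same comparisons, against 1.93%, 16.0% and 5.41% of all genes. With at most 3 counts in a library at E15.5, Hbb-bh1 could not have been called there. Fits of only the groups compared tested the other 7 at E15.5, of which 0 passed. With unadjusted p under 0.05, the joint edgeR fit of all 6 groups gave 1 such value, for Hbb-bt at E15.5. Fits of only the groups compared gave 0 at E13.5. At E15.5 they gave 0 of 7 for Bcl11a-CKO against control, where 2474 of 14287 genes had such a value. It was 2 of 7 for Bcl11ab-DCKO against control (4566 of 14278 genes) and 4 of 7 between the mutants (2743 of 14248). DESeq2 called 0 of 8 in each comparison too, with an unadjusted p under 0.05 for 1 member between the mutants at E13.5 and for 1 in Bcl11ab-DCKO against control at E15.5.

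Hbb-y, the gene that BCL11A silences in definitive red cells, had edgeR log2 fold changes of -0.32 ± 0.37 (adjusted p = 0.739) in Bcl11a-CKO and 0.24 ± 0.37 (0.805) in Bcl11ab-DCKO at E13.5. At E15.5 they were -0.49 ± 0.75 (0.862) and 0.42 ± 0.64 (0.728). The mutants differed by 0.56 ± 0.37 (0.654) and 0.91 ± 0.67 (0.602). The standard errors, of 0.37 at E13.5 and 0.64 to 0.75 at E15.5 on the log2 scale, set how small a change in Hbb-y could be seen. Leaving out single E15.5 libraries turned the direction, from -0.49 to 0.76 in Bcl11a-CKO without Control replicate 1 and from 0.42 to -0.43 in Bcl11ab-DCKO without Control replicates 2 and 3.

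In the joint fit, the 1 unadjusted p under 0.05 between genotypes belonged to Hbb-bt in Bcl11ab-DCKO against control at E15.5. Its edgeR log2 fold change was -2.07 ± 0.94 (adjusted p = 0.164). It ran from -2.75 (0.103) without Control replicate 1 to -0.38 (0.916) without Control replicates 2 and 3. Its 3 Bcl11ab-DCKO libraries, at 1.70 to 5.17 CPM, overlapped the lowest control at 4.39 CPM. The change of a genotype's effect between the ages was tested as an interaction, and 0 of 8 genes passed for Bcl11a-CKO, where 0.0803% of all genes did, and 0 of 8 for Bcl11ab-DCKO, where 3.87% did. By edgeR and by DESeq2, 0 members had an unadjusted p under 0.05 in these interactions. For Hbb-bt the Bcl11ab-DCKO interaction was -2.45 ± 1.18 (adjusted p = 0.338).

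**Figure D3:**
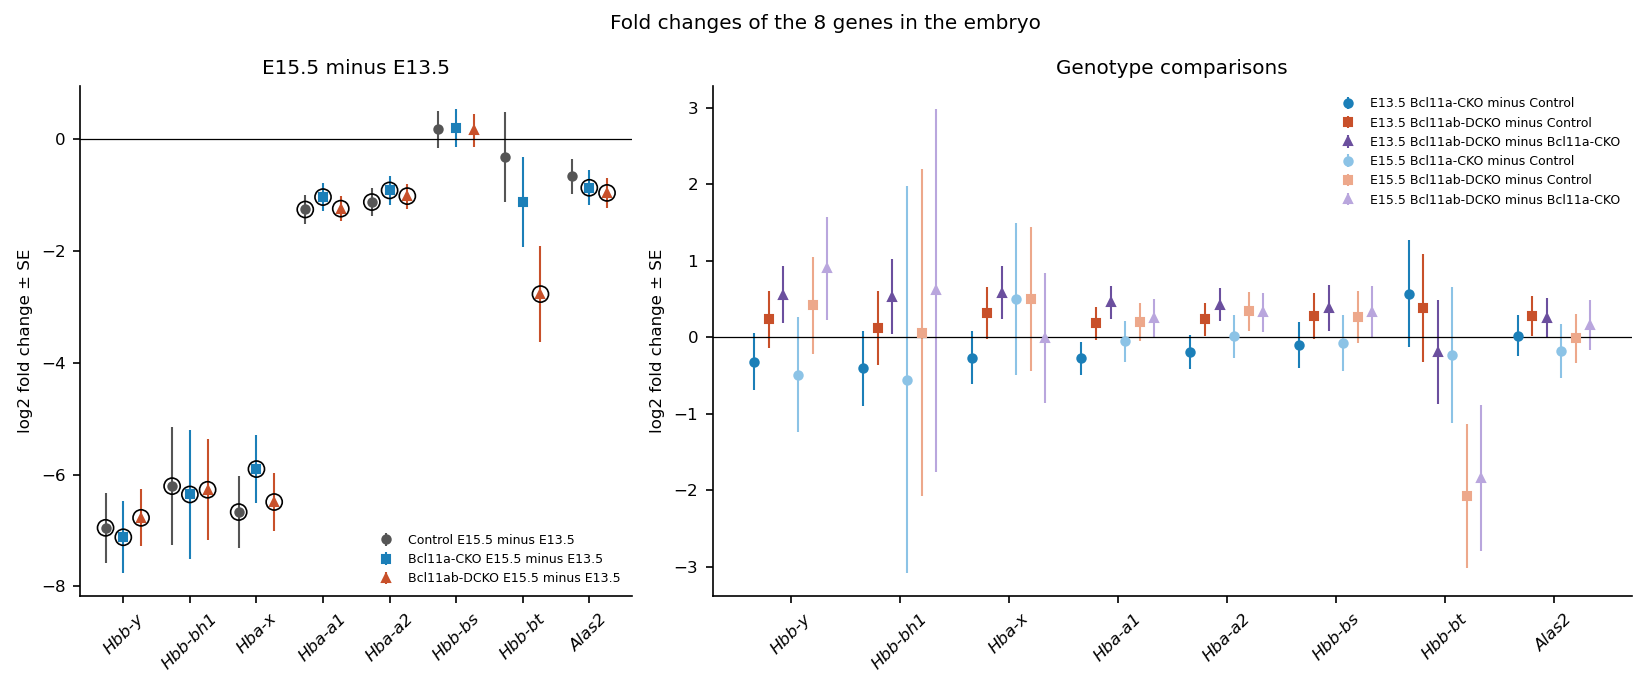
Log2 fold change ± SE (y axis) of each gene in the edgeR fit, from E13.5 to E15.5 in each genotype (left) and between genotypes at each age (right); circles mark adjusted p under 0.05. The age effects of Hbb-y lie between -7.12 and -6.77, and no genotype effect is circled; Hbb-bh1 passed the filter through E13.5 alone.

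Other genes of the red cell moved in both directions with age. Of 65 genes in 4 lists (heme synthesis and iron uptake, red cell membrane and enzymes, erythroid maturation, erythroid transcription factors), 46 were tested. Of these, 7 rose and 18 fell in controls, 9 and 17 in Bcl11a-CKO, and 9 and 18 in Bcl11ab-DCKO. Slc4a1 among them passed the filter on low counts through E13.5 alone, so it could only fall. Of all genes tested, 24.3% rose and 23.8% fell in controls, 23.8% and 24.4% in Bcl11a-CKO, and 27.7% and 27.2% in Bcl11ab-DCKO (48.0%, 48.1% and 54.8% in either direction). The median log2 fold changes of the 46 were -0.26, -0.29 and -0.24, beside medians within 0.02 of zero over all genes.

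Slc4a1, the band 3 anion exchanger of the red cell membrane, averaged 14.3 CPM in controls at E13.5 and 0.517 CPM at E15.5. Like Hbb-bh1, it passed the filter on low counts through its E13.5 level alone. It could therefore only fall, and its fitted value is not used as support. In controls, where 24.3% of all genes rose and 23.8% fell, 10 of 15 tested membrane and enzyme genes fell. That list includes Slc4a1 and may include other genes that could only fall. Ank1, the red-cell ankyrin, which neurons also express, rose (edgeR log2 fold change 2.55 ± 0.19, adjusted p = 5.39e-07). Of 15 tested heme and iron genes, 5 fell and 0 rose in controls. Among them were the mitochondrial iron importer Slc25a37 (-1.22 ± 0.21) and the transferrin receptor Tfrc (-0.53 ± 0.11). Of 9 maturation genes, 5 rose, led by the surface protein Cd24a (1.27 ± 0.15), which neurons express as well. Of 7 transcription factors, 3 fell, among them E2f2 (-2.20 ± 0.29) and Tal1 (-1.24 ± 0.45), a master regulator of blood formation. Gata1, the central erythroid factor, was near the limit of detection at both ages, with group means of 0.130 to 0.554 CPM at E13.5 and 0 in all E15.5 libraries.

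Of 26 tested genes known to regulate globin switching, 11 fell and 2 rose with age in controls, where 23.8% of all genes fell and 24.3% rose. Hmga2 (-3.98 ± 0.52), Lin28b (-2.08 ± 0.39), Igf2bp1 (-0.95 ± 0.11) and Sox6 (-0.87 ± 0.11) fell; Lin28b, Igf2bp1 and Hmga2 belong to the let-7 pathway that favours fetal globin, and Sox6 is a partner of BCL11A on globin genes. All of them are also expressed by cortical progenitors. In Bcl11ab-DCKO against control at E15.5, 2 of the 26 rose and 3 fell, where 16.0% of all genes were called in either direction. The log2 fold changes of the 26 ran from -1.59 to 7.09. Lin28b was among those that rose (edgeR log2 fold change 1.99 ± 0.39, adjusted p = 0.00259), while Hbb-y did not pass the test there.

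Between genotypes, 0 of the 46 erythroid genes passed the edgeR test in Bcl11a-CKO at E13.5 or at E15.5, where 2.59% and 1.93% of all genes did. In Bcl11ab-DCKO, 2 rose and 2 fell at E13.5, and 3 rose and 3 fell at E15.5. Of all genes, 7.05% and 16.0% were called there in either direction, so these counts are close to the shares over all genes. Zfpm1, the cofactor of GATA1, rose by 0.89 ± 0.16 and 0.78 ± 0.18 (adjusted p = 0.00332 and 0.00787), and Ank1 fell by 0.86 and 1.25 on the log2 scale (0.0268 and 2.30e-04). Cygb, a globin of nonerythroid cells, was the only tested gene of 10 other globin-family genes. It rose in Bcl11ab-DCKO by 1.12 ± 0.27 at E13.5 (adjusted p = 0.0205) and by 2.12 ± 0.28 at E15.5 (1.10e-04), where the level went from 22.5 to 98.3 CPM.

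Markers of other cell types at the brain surface and in its vessels also moved with age, beside the globin genes. The summed level of 11 meninges and fibroblast genes was 507.5 to 850.0 CPM in the E13.5 units and 67.68 to 92.67 CPM at E15.5. Of the 10 tested, 9 fell in controls and 10 in each mutant, with median log2 fold changes of -4.91, -5.01 and -4.76, where 23.8%, 24.4% and 27.2% of all genes fell. Lum, Aldh1a2 and Slc6a13 had no counts in the E15.5 controls. Tested genes that passed the filter through E13.5 alone could only fall, so these counts and medians are not used as support. The 16 endothelial and pericyte genes summed to 308.6 to 468.3 CPM at E13.5 and to 221.1 to 294.6 CPM at E15.5, and 8, 8 and 11 of 16 fell, beside the same shares of all genes. Macrophage and microglia genes summed to 68.16 to 98.19 CPM at E13.5 and to 72.86 to 124.1 CPM at E15.5. The part of retained meninges or vessels was not tested for the drop of the globin genes or of the embryonic β-like share.

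**Figure D4:**
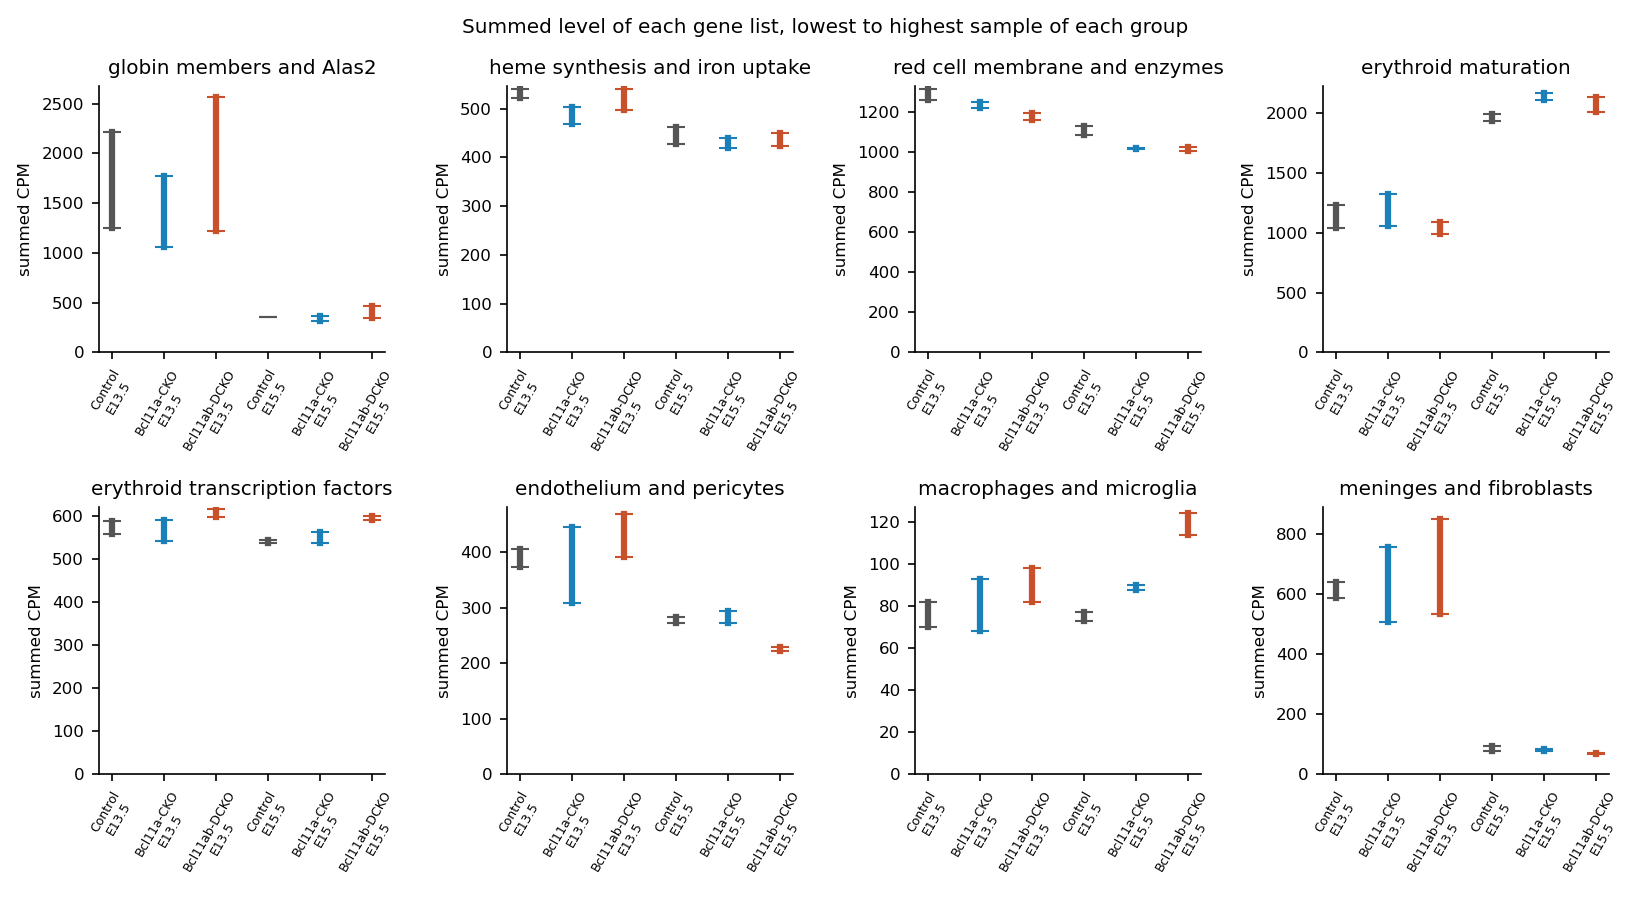
Summed CPM (y axis) of the globin genes with Alas2 and of 7 other gene lists in the embryonic groups, drawn from the lowest to the highest unit of each group. The globin genes with Alas2 sum to 1055 to 2565 CPM at E13.5 and to 313.8 to 464.7 CPM at E15.5, and the meninges and fibroblast genes to 507.5 to 850.0 CPM and 67.68 to 92.67 CPM.

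The deviations of single samples from their group means show which genes went together from sample to sample. Across the 16 embryonic units, as a description, the deviation of Hbb-y ran with that of Hba-x (Pearson r = 0.95), Alas2 (0.78), Hbb-bh1 (0.68) and Hba-a1 (0.64). It ran less with Hba-a2 (0.53) and Hbb-bs (0.40), and Hbb-bt went the other way (-0.51). The sum of the adult β genes mostly followed Hbb-bs (0.95) and not Hbb-bt (-0.24), and it ran with Hba-a2 (0.76) and Hba-a1 (0.63). Samples rich in one embryonic globin were thus rich in the others. Outside the members, the genes most like that sum were Exoc6 (0.95), Nckap1l (0.92), Rasal3 (0.92), 1190002N15Rik (0.90), Slc40a1 (0.89), Abcg1 (0.89), Tspyl1 (0.89) and Mfhas1 (0.88). Exoc6 is a vesicle-tethering gene needed for iron uptake of mouse red cells, and Slc40a1 is the iron exporter ferroportin. The genes most like Hbb-y were Itga1, Sipa1, AW011738 and 5530601H04Rik (all 0.88), then E230020A03Rik, Dcbld2 and Ccdc8 (0.87) and Xpnpep3 (0.86). With 16 units that share libraries and scaling, such values rank genes and carry no test.

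At P0 the deposited values are CPM of libraries with 16367279 to 25693590 reads. Bcl11b was lower in Bcl11ab-DCKO at P0, with 34.1 to 41.4 CPM against 176 to 240 CPM in controls. Bcl11a was not lower in the libraries labelled Bcl11a-CKO, with 450 to 483 CPM against 319 to 492 CPM in controls (limma log2 fold change 0.22 ± 0.14, adjusted p = 0.315). These libraries are therefore named by their label. The P0 tables list part of the genes, and which genes are missing is related to how they differ, so counts of calls at P0 describe the listed genes.

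Among the members at P0, Hba-a2 separated the controls from both mutants. It stood at 1.41, 1.64 and 0.782 CPM in the controls, at 173, 176 and 144 CPM in the libraries labelled Bcl11a-CKO, and at 147, 184 and 148 CPM in Bcl11ab-DCKO. The groups stood far apart, and the lowest library labelled Bcl11a-CKO was 88.2 times the highest control. On the log2(CPM + 1) scale, which understates the change of a gene this low in controls, the difference was 6.20 ± 0.16 for Bcl11a-CKO (limma adjusted p = 9.87e-08) and 6.15 ± 0.17 for Bcl11ab-DCKO (2.50e-07). The mutants differed from each other by -0.05 ± 0.15 (adjusted p = 0.870). With the same controls in both comparisons, the differences are not independent. The P0 titles differ in form between the groups, and only those labelled Bcl11a-CKO begin with a long code starting with R. At P0 this difference in labels cannot be told apart from genotype. Whether the P0 controls were processed like the mutants cannot be checked from the values used here, and its part in the difference was not tested. Of 13423 genes listed for Bcl11a-CKO, 0 rose more than Hba-a2 in the ratio of mean CPM + 1, and of 7999 for Bcl11ab-DCKO, 1 did.

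The other listed members at P0 did not pass the test. Hbb-bs stood at 173, 293 and 177 CPM in controls and at 198, 232 and 158 CPM in the libraries labelled Bcl11a-CKO (limma log2 fold change -0.10 ± 0.21, adjusted p = 0.758). Hbb-bt stood at 26.9, 50.4 and 30.7 CPM against 31.0, 41.3 and 33.6 CPM (0.01 ± 0.21, 0.974). Control replicate 2 was the highest for both adult β genes. Alas2 stood at 2.87, 6.66 and 3.86 CPM in controls, 5.98, 7.63 and 6.40 CPM in the libraries labelled Bcl11a-CKO (0.54 ± 0.24, 0.175) and 3.96, 6.90 and 4.45 CPM in Bcl11ab-DCKO (0.19 ± 0.28, 0.787). Thus 1 of 4 listed members passed for Bcl11a-CKO, where 0.557% of all genes did (0.207% higher). For Bcl11ab-DCKO 1 of 2 passed, where 0.945% did (0.216% higher), and between the mutants 0 of 2, where 4.01% did, with 0 at an unadjusted p under 0.05 by limma.

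Set beside the adult β gene Hbb-bs, Hba-a2 stood apart between the P0 controls and the libraries labelled Bcl11a-CKO. In the embryo it stood apart between the ages. The ratio of Hba-a2 to Hbb-bs was 0.00815, 0.00559 and 0.00443 in the P0 controls and 0.874, 0.760 and 0.914 in the libraries labelled Bcl11a-CKO. In the embryo, with wild-type libraries included, the count ratio of Hba-a2 to Hbb-bs was 1.01 to 1.76 at E13.5 and 0.447 to 0.594 at E15.5. The P0 controls thus stood below every other library with both genes, and the libraries labelled Bcl11a-CKO stood between the ranges of the embryonic ages. Hba-a2 shares sequence with Hba-a1, which was not analysed at P0, so the split of reads between them is uncertain here too. The mitochondrial gene mt-Atp8, which overlaps mt-Atp6 and was chosen after its values were seen, was also low in the P0 controls alone. It stood at 17.5, 16.2 and 15.3 CPM in the P0 controls and at 400, 417 and 336 CPM in the libraries labelled Bcl11a-CKO. In Bcl11ab-DCKO it stood at 604, 546 and 536 CPM, and in the embryo at group means of 557 to 606 CPM. Of the listed genes tested, 0.207% were called higher than controls in the libraries labelled Bcl11a-CKO and 0.216% in Bcl11ab-DCKO. Why mt-Atp8 was low in the P0 controls was not tested. The share of Hbb-bt in the adult β reads was 13.45%, 14.68% and 14.81% in the P0 controls and 13.53%, 15.11% and 17.56% in the libraries labelled Bcl11a-CKO, without the low libraries of the embryonic groups.

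**Figure D5:**
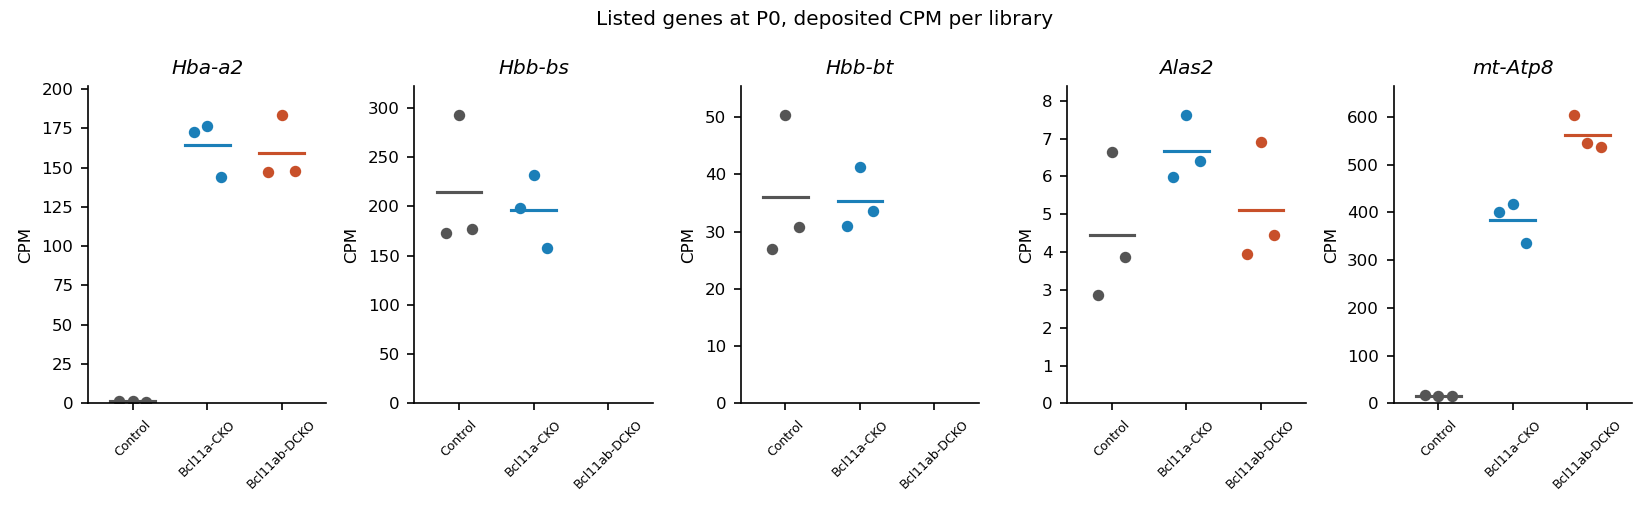
Deposited CPM (y axis, from 0) at P0 of the 4 listed members and of mt-Atp8, with dots for libraries and bars for group means; Hbb-bs and Hbb-bt have no Bcl11ab-DCKO values. Hba-a2 lies at 0.782 to 1.64 CPM in controls and at 144 to 184 CPM in the mutants, while Hbb-bs, Hbb-bt and Alas2 overlap between the groups.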

How the data were processed

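The authors deposited raw counts for the embryonic libraries. The P0 tables hold CPM per library and the average log2 CPM and log2 fold change of the authors, per the file headers; the log2 columns were not used for any result. HISAT2 2.0.4, StringTie 1.3.0, edgeR (no version) and mm10 are named in the submitters' processing notes, and what each did is not given in the sources used here. Groups came from sample titles. Embryonic counts were tested with edgeR 4.0.16 (R 4.3.3; quasi-likelihood test, TMM scaling, filterByExpr, 6 groups in 1 model, 16 units) over 14947 genes. P0 values were tested with limma 3.58.1 on log2(CPM + 1) over genes averaging 1 CPM or more (12576, 7404 and, for the mutants against each other, 6905 of 7346 genes in both tables). Of the P0 values, 99.981% and 99.879% were whole multiples of 1 read (tolerance 0.00051 CPM), and edgeR on those reads called 1 of 4 and 1 of 2 members. Calls are at an adjusted p under 0.05. DESeq2 1.42.0, other filters and scalings, separate libraries, left-out replicates and replicate blocks were alternatives. Shares have exact (Clopper-Pearson) intervals at 95%, from SciPy 1.17.1. The members and gene lists were chosen with earlier results of these data known. Named were all members, up to 4 called genes with the lowest adjusted p per list and comparison, the targeted genes and the 8 genes most like a pattern. The lists also held choroid plexus and platelet genes, of which 1 of 8 and 3 of 13 were tested; with age in controls, 0 rose and 1 fell, and 1 rose and 2 fell. The fits were tested on simulated data.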

Additional observations from a re-analysis of the deposited data

How the results depend on the processing

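Across 174 alternatives, the counts of members called stayed within 1.5 times of those reported. Many of these were embryonic genotype comparisons, where no member was called in any setting. The count with age in Bcl11a-CKO shrank most, as Hba-a2 and Alas2 lost their calls when E15.5 replicates were left out. Leaving out a unit moved the E15.5 control share of embryonic β-like counts from 5.14% to 1.992% or 8.283% and that of Hba-x from 1.196% to 0.4819% or 1.91%. Of 462 alternatives for single log2 fold changes, 434 kept direction and call, 8 lost and 2 gained a call, and 18 turned direction, all 18 among values that did not pass the test. Hbb-bt at P0 for Bcl11a-CKO was -0.033 with edgeR on the recovered reads, and ran from -0.16 to 0.28 when single replicates were left out; Hbb-bs there ran from -0.23 to 0.14. Leaving out replicates gave -0.018 to 0.402 for Hbb-bs and -2.02 to 0.36 for Hbb-bt with age in controls, and -0.11 to 0.44 for Hbb-bs with age in Bcl11a-CKO. For Hbb-y it gave -0.071 to 0.545 in Bcl11ab-DCKO at E13.5, -1.33 to 0.76 in Bcl11a-CKO at E15.5 and -0.43 to 1.65 in Bcl11ab-DCKO at E15.5. At P0 it gave -0.029 to 0.463 for Alas2 in Bcl11ab-DCKO and -0.15 to 0.0075 for Hba-a2 between the mutants. Treating the 18 embryonic libraries as separate samples let Alas2 pass in controls (edgeR adjusted p = 0.0465). Over all genes, 39 of 174 alternative counts of calls moved by more than 1.5 times. With a fit of only the groups compared, 47 genes were called for Bcl11a-CKO at E13.5 (387 in the joint fit) and 16 between the mutants (109); DESeq2 called 231 there, and 64 against 12 in the Bcl11a-CKO interaction. With 18 separate libraries, 646 genes against 289 were called for Bcl11a-CKO at E15.5 and 52 in that interaction. Leaving out single replicates at E13.5 gave 184 to 484 calls for Bcl11a-CKO, 614 to 924 for Bcl11ab-DCKO (1054 with all) and 37 to 209 between the mutants. At E15.5 it gave 57 to 102, 1319 to 1934 (2394 with all) and 353 to 635 (809), for the interactions 2 to 19 and 295 to 464 (579), and at P0 70 to 252 for Bcl11a-CKO (70) and 25 to 203 between the mutants (277). At P0, deviations of samples with the same number had correlations of -0.413 to 0.183. At E13.5, those of the 3 libraries whose titles end in 1-2, 1 in each group, had correlations of -0.05 to 0.145. With 3 samples in a group these values cannot show whether samples were paired, and the main tests paired none. A replicate block left 0 members called between genotypes in the embryo, 1, 1 and 0 at P0, and 5, 5 and 7 with age, Alas2 in Bcl11a-CKO being lost (adjusted p = 0.0538). Where leaving out a replicate left 1 unit in a group, that unit was assumed to vary like the other groups. Depth limits Hbb-bh1 at E15.5, which had at most 3 counts in a library.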

Other observations

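The libraries with a low Hbb-bt share of the adult β counts were compared over all genes, as a description chosen after the values were seen. Across the 16 embryonic units, deviations of the ratio of Hbb-bt to Hbb-bs ran most opposite to those of 8 genes, of which 6 lie on chromosome 7, the chromosome of the β-globin cluster. These were Pnpla2, Prcp, Pcf11, Gm26981, Inppl1 and 4632427E13Rik, with Pearson r of -0.84 to -0.89. Of the 8 genes most alike to the ratio, only Tmem147 lies on chromosome 7. Pnpla2, a triglyceride lipase, lies at chr7:141455198-141460743 in mm10 and Inppl1, a phosphoinositide phosphatase, at chr7:101822632-101838076. Among the 50 genes with the largest absolute r, 9 (18%) lie on chromosome 7, beside 1149 of 14922 genes compared (7.7%). It was 7 of the 50 with the lowest r and 8 of the 50 with the highest. No test was made of this share, since the genes were ranked on the same samples.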
